A study of Mus musculus with 4 samples.

Results

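Ccdc184, Fam184b, Pxdc1 and Hs6st2 are 4 little-studied genes whose RNA was far lower in Gata3-KO than in control lymphoid tissue inducer (LTi) cells. They were picked by name, for their large falls in this same comparison and for having no known role in LTi cells, so the difference between genotypes is given below as a description with no test. All 4 were found among the 27179 genes of the deposited table, and all 4 were among the 14272 genes with enough reads to be tested. LTi cells are innate lymphoid cells that express lymphotoxin and help to build gut lymphoid tissue. They were sorted from small intestinal lamina propria of C57BL/6 mice as live Lin- CD127+ CCR6+ cells without KLRG1, NK1.1 or NKp46, and RNA was sequenced in 4 libraries. The 2 control libraries came from Gata3+/+ mice. The 2 Gata3-KO libraries came from Gata3fl/fl mice with VavCre, a Cre transgene under a promoter active across blood cells, so floxed Gata3 can be deleted in T cells and other innate lymphoid cells as well as in LTi cells. The labels give no ages, do not say whether the controls carried VavCre, and do not say whether replicates came from separate animals, so the p-values below measure the spread between these samples only, which may be technical.

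GATA3 is a transcription factor that binds DNA at sites with a GATA core and is needed for the development and function of several innate lymphoid cells and T helper cells. Hs6st2 codes for an enzyme that adds sulfate to the glucosamine units of heparan sulfate, the sugar chain of syndecans, glypicans and other proteoglycans that binds growth factors and cytokines at the cell surface. Pxdc1 is named for a PX domain, a module that in other proteins binds phosphoinositide lipids of endosomes and the plasma membrane. Ccdc184 and Fam184b are named for a coiled coil and for a sequence family, and little is known of what either protein does.

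The 4 genes lie on different chromosomes and differ in structure. Ccdc184 (Entrez 239650) spans 2.329 kb on the plus strand at chr15:98167806-98170134 of GRCm38, and its coding transcript in GENCODE has 1 exon. Fam184b (Entrez 58227) spans 109.8 kb on the minus strand at chr5:45529705-45639501, with 16 exons. Pxdc1 (Entrez 66895) spans 24.84 kb on the minus strand at chr13:34627840-34652681, with 5 exons. Hs6st2 (Entrez 50786) spans 295.1 kb on the minus strand at chrX:51386637-51681705, with 2 coding transcripts of 3 and 5 exons. GENCODE places antisense or unclassified transcripts opposite Fam184b and Pxdc1, and reads of the opposite strands cannot be told apart here because no use of strand is stated. It also places a processed pseudogene, Gm14581, on the same strand as Hs6st2 and overlapping it, with no value of its own here.

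The 250 bases before each RefSeq start site in the promoter table (GRCm38.p6) were searched for motifs because all 4 genes were lower where a GATA-binding factor was deleted. The windows were chr15:98167556-98167805 for Ccdc184, chr5:45639502-45639751 for Fam184b, chr13:34652682-34652931 for Pxdc1, and chrX:51681603-51681852 and chrX:51680478-51680727 for the first and second Hs6st2 start sites. GENCODE starts transcripts of these genes further upstream, so the windows of Ccdc184 and Pxdc1, the first of Hs6st2 and 113 bases of that of Fam184b lie in 5′ UTRs of GENCODE transcripts and are not printed. The RefSeq span of Hs6st2 itself reaches into its first window, and the second lies within the gene, in an intron of the coding transcripts. The stretches outside UTRs are chr5:45639615-45639751 for Fam184b, which holds the 1 GATA core found, and the second Hs6st2 window, shown for contrast as the most GC-rich. Both run 5′ to 3′ on the minus strand. Capitals mark the match to the GATA core, which reads TATC on this strand.
Fam184b: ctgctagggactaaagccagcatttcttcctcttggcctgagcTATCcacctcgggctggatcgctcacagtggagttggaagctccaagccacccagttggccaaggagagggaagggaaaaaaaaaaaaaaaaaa
Hs6st2: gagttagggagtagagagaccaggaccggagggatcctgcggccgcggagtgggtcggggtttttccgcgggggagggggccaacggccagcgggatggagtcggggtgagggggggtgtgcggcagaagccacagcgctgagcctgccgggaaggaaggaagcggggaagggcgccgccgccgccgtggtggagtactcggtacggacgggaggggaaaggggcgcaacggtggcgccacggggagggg

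The GATA core was found in 1 of the 5 windows, once, in Fam184b at 207 to 204 bases before the RefSeq start. It was present in 53.6% of all 32851 windows of the same length, both strands searched. The longer forms, searched as AGATAA, as AGATAG, as TGATAA or as TGATAG, matched none of the 5 and were present in 26.5% of all windows. AGGTCA, a half-site of nuclear receptors, matched once, in the first Hs6st2 window at 138 to 133 bases before that start, against 14.0% of all windows. TATAAA matched in Pxdc1 at 28 to 23 bases and in the first Hs6st2 window at 55 to 50 bases before the start, against 12.4% of all windows. No match overlapped another. GC made up 69.6% of the Pxdc1 window, 58% for Ccdc184, 56.8% for Fam184b, and 50% and 72% for the first and second Hs6st2 windows, against a median of 52.4%. No motif of those searched was found in the windows of all 4 genes.

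For Gata3, the targeted gene, the level was 84.3 and 50.7 RPKM (reads scaled to gene length and library total) in control replicates 1 and 2 against 34.5 and 23.3 RPKM in Gata3-KO replicates 1 and 2. Both Gata3-KO libraries lay below both controls, but 42.8% of the control mean remained over the whole gene, and the log2 difference of −1.18 ± 0.36 (SE) did not pass limma's test (adjusted p = 0.0906). The table gives 1 value for all exons of Gata3 and none for the floxed part alone, so the deletion itself was not measured.

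In control LTi cells 2 of the genes were abundant and 2 were at moderate levels, and in Gata3-KO cells all 4 were far lower. The mean control level was 257 RPKM for Pxdc1 (rank 169 of the 14272 tested genes), 196 RPKM for Ccdc184 (rank 227), 29.7 RPKM for Fam184b (rank 1689) and 15.7 RPKM for Hs6st2 (rank 2899). The control values of Pxdc1 and Ccdc184 overlapped, so their order is not clear, and both lay above those of Fam184b, which lay above those of Hs6st2. Both Gata3-KO libraries lay below both control libraries for 4 of 4 genes, which was the case for 7.57% of tested genes. The choice of the genes fixes that result.

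Ccdc184, the coiled-coil gene, was measured at 272 RPKM in control replicate 1 and 120 RPKM in control replicate 2, and at 4.70 RPKM and 2.83 RPKM in Gata3-KO replicates 1 and 2. Mean levels came to 196 ± 107 RPKM in control and 3.76 ± 1.32 RPKM in Gata3-KO cells (SD, n = 2), so 1.92% of the control mean remained. The lowest control library was 25.6 times the highest Gata3-KO library. These values rest on 9046 and 3554 reads in control and 266 and 158 reads in Gata3-KO libraries, so the remaining signal was well above the 3 reads that a count of 0 allows. The control libraries differed 2.26-fold from each other, a wider gap on the log2 scale than that of 92.1% of tested genes.

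Fam184b had the steadiest values. It stood at 29.3 RPKM and 30.2 RPKM in control replicates 1 and 2 and at 0.439 RPKM and 0.395 RPKM in Gata3-KO replicates 1 and 2. Mean levels were 29.7 ± 0.587 and 0.417 ± 0.0313 RPKM (SD, n = 2), and 1.40% of the control mean remained. Every control library was at least 66.8 times every Gata3-KO library. The Gata3-KO values rest on 44 and 39 reads, with 95% Poisson intervals of 0.319 to 0.589 RPKM and 0.281 to 0.539 RPKM, which overlap. In control libraries there were 1728 and 1575 reads. Its gap between the control libraries was wider than that of 7.24% of tested genes.

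Pxdc1, the PX domain gene, had the highest mean level of the 4 in both genotypes, though its control values overlapped with those of Ccdc184. It had 308 RPKM and 206 RPKM in control replicates 1 and 2 against 21.6 RPKM and 27.6 RPKM in Gata3-KO replicates 1 and 2. Mean levels were 257 ± 72.1 and 24.6 ± 4.22 RPKM (SD, n = 2), and 9.57% of the control mean remained. The lowest control library was 7.47 times the highest Gata3-KO library, so the groups were well apart although the ratio was the smallest of the 4. These values rest on 8244 and 4887 reads in control and 984 and 1238 reads in Gata3-KO libraries. Replicate 1 was the higher of the control libraries and the lower of the Gata3-KO libraries.

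Hs6st2, the heparan sulfate sulfotransferase, had the lowest control level and, as a ratio between the control libraries, the widest control spread of the 4. It stood at 22.9 RPKM in control replicate 1 and 8.51 RPKM in control replicate 2, and at 0.547 RPKM and 0.448 RPKM in Gata3-KO replicates 1 and 2. Mean levels were 15.7 ± 10.1 and 0.497 ± 0.0702 RPKM (SD, n = 2), and 3.17% of the control mean remained. The lowest control library was 15.6 times the highest Gata3-KO library. Reads numbered 1400 and 462 in control and 57 and 46 in Gata3-KO libraries. The control libraries differed 2.69-fold, a wider gap on the log2 scale than that of 94.5% of tested genes.

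**Figure D1:**
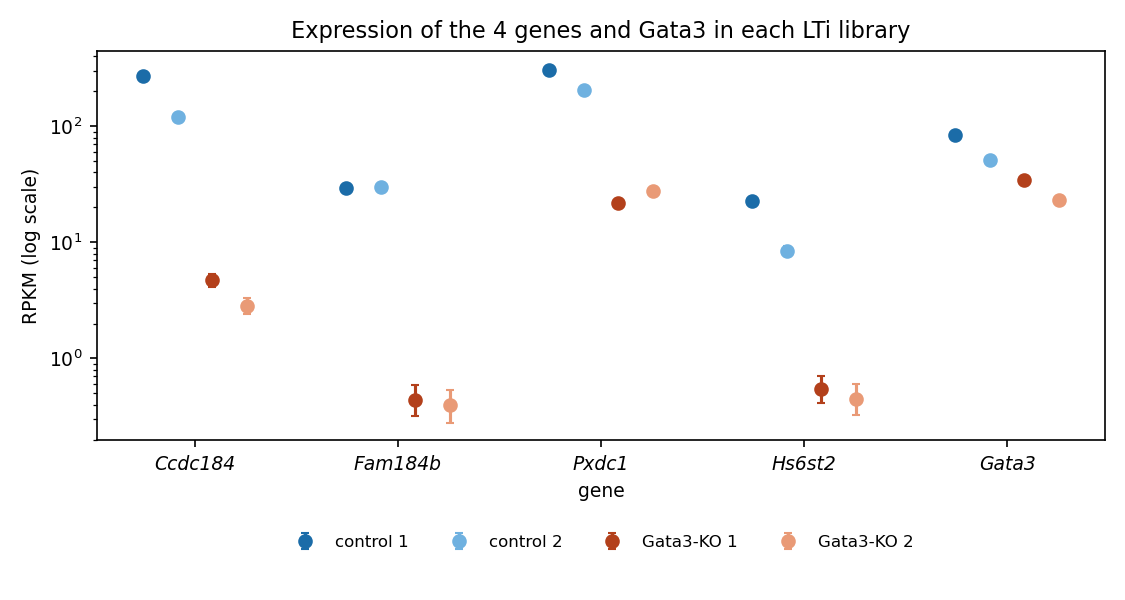
RPKM (log scale) of the 4 genes and Gata3 in control replicates 1 and 2 (blue) and Gata3-KO replicates 1 and 2 (orange), with 95% Poisson intervals that cover counting error only. For each of the 4 genes both Gata3-KO points lie at least 7.47-fold below both control points, while Gata3 keeps 42.8% of its control mean.

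The order of the falls depended on the scale. With 1 added to each RPKM before taking log2, which shrinks differences of weakly expressed genes, Ccdc184 differed by −5.28, Fam184b by −4.44, Hs6st2 by −3.33 and Pxdc1 by −3.31. These are ranks 1, 4, 10 and 11 from the largest fall among tested genes. The neighbours in that order were Epas1 at −3.46, just before Hs6st2, and Il22 at −3.31, just after Pxdc1. As plain ratios of the mean RPKM the order was another: Fam184b was 71.4 times lower, Ccdc184 52.1 times, Hs6st2 31.5 times and Pxdc1 10.4 times. With a pseudocount of 0.1 in place of 1, Fam184b differed by −5.85, Ccdc184 by −5.59, Hs6st2 by −4.56 and Pxdc1 by −3.36. The median tested gene was 0.43 higher in Gata3-KO libraries on the deposited scale, and relative to it the log2 differences were −5.72 for Ccdc184, −4.87 for Fam184b, −3.76 for Hs6st2 and −3.75 for Pxdc1.

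**Figure D2:**
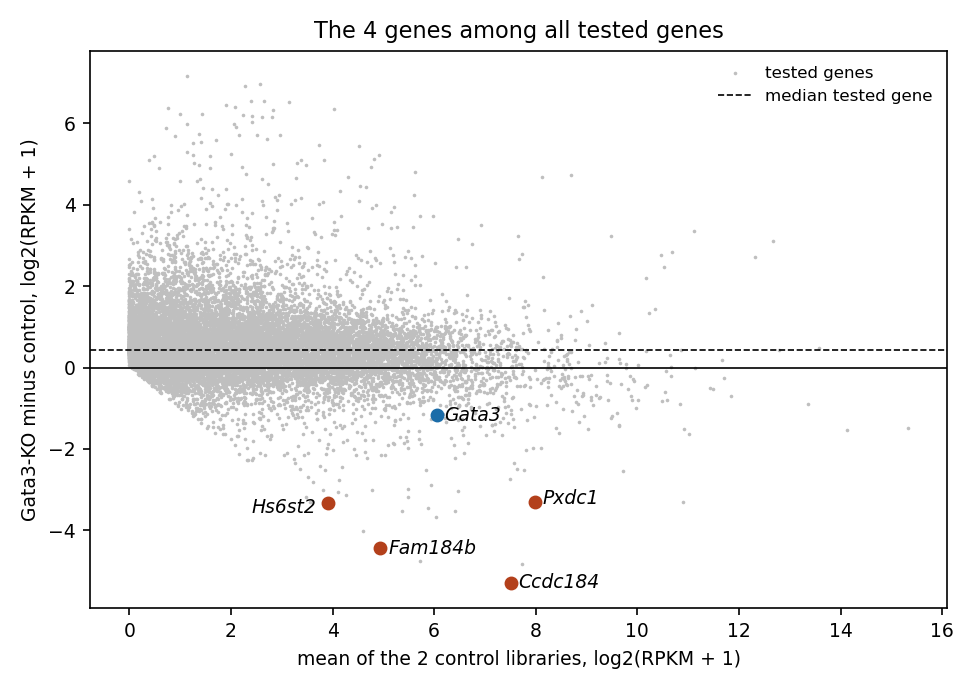
Mean log2(RPKM + 1) of the 2 control libraries (x axis) against the difference Gata3-KO minus control (y axis) for 14272 tested genes (grey), with the 4 genes in orange, Gata3 in blue and the median gene as a dashed line at 0.43. Ccdc184 has the lowest value, −5.28, and Gata3 lies at −1.18.

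Markers of other cell types were detected, and several lists were higher in Gata3-KO libraries. As a background for their counts, limma called 8.3% of all tested genes higher and 0.687% lower (8.99% in either direction). Ccr6, a chemokine receptor of the sort gate, was present in every library, with 146 and 63.3 RPKM in control replicates 1 and 2 against 155 and 176 RPKM in Gata3-KO replicates 1 and 2. Il7r had 143 and 77.6 against 61.2 and 45.7 RPKM, and Kit 154 and 146 against 95.2 and 134 RPKM. Both Il7r and Kit were lower in both Gata3-KO than in both control libraries, though neither was called. Of 15 LTi markers 1 (Il17a) was called higher and 2 (Cd4 and Il22) lower, with sums of 2882 to 4309 RPKM in control and 1497 to 1913 RPKM in Gata3-KO libraries. Without Il22 the sums overlapped, at 1362 to 1908 RPKM and 1368 to 1626 RPKM. Of 12 B and plasma cell markers 11 were called higher in Gata3-KO libraries, with a summed level of 296 to 472 RPKM in control and 2218 to 4021 RPKM in Gata3-KO libraries. Of 14 epithelial markers 9 were called higher (1170 to 1378 RPKM summed in control, 1969 to 3716 RPKM in Gata3-KO), and of 12 T cell markers 5 (174 to 278 RPKM against 497 to 787 RPKM). Of 9 tested markers of ILC1, NK cells and NKp46+ ILC3, 2 (Ncr1 and Klrk1) were called lower, with overlapping sums of 63.3 to 121 RPKM and 43.8 to 75.3 RPKM. No marker of these 5 lists was at 0 in all libraries. Of 6 tested ILC2 markers 2 (Areg and Bcl11b) were called higher (42.9 to 46.9 RPKM against 150 to 306 RPKM summed). Areg made up most of each sum, at 41.2 and 40.3 against 295 and 139 RPKM, and no sum without it was computed. Bcl11b had 0.494 and 0.169 against 5.33 and 7.03 RPKM. Il9r and Hpgds were higher in both Gata3-KO libraries but not called, while Il17rb and Klrg1 overlapped. The untested Il1rl1, Il5 and Il13 stayed at or below 0.331 RPKM in every library, and Il4 at or below 0.494 RPKM. Of 6 tested myeloid markers 1 was called higher, and of 7 tested markers of stroma and endothelium 0 were called. Of 3 tested markers of enteric neurons and glia 1 (Tubb3) was called higher, with sums of 0.628 to 1.34 RPKM in control and 4.50 to 6.19 RPKM in Gata3-KO libraries. Of the whole list 4 of 9 were at 0 in all libraries, among them Gfap and S100b of glia, and Uchl1, Snap25 and Sox10 had reads in the Gata3-KO libraries only. After median-ratio scaling limma called 1.04% of tested genes. Still higher were 1 B and plasma cell marker (Ighm), 3 epithelial (Epcam, Cdh1 and Olfm4), 1 T cell (Cd247), 1 myeloid (Siglech) and 0 ILC2, neuron and glia markers. The LTi calls stayed the same (Il17a higher, Cd4 and Il22 lower), and of Ncr1 and Klrk1 only Klrk1 was lower. The part of other cells in the values of the 4 genes was not tested, and in bulk RNA fewer cells of a type and less RNA per cell cannot be told apart.

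Levels divided by an LTi gene of the same library do not depend on library scaling. Divided by Ccr6, which the sort selected for, the Gata3-KO mean was 1.23% of the control mean for Ccdc184, 0.749% for Fam184b, 5.52% for Pxdc1 and 2.09% for Hs6st2. Divided by Il7r, which codes for CD127, the shares were 4.02%, 2.66%, 19.9% and 6.95% in the same order, with Il7r itself lower in both Gata3-KO than in both control libraries. Both Gata3-KO libraries lay below both controls for each of the 4 genes with both divisors, but the choice of the genes largely fixes that result. The share of all tested genes with such ratios was not computed.

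The same ratios show how the control libraries differ. Ccdc184 was 1.86 times Ccr6 in control replicate 1 and 1.90 times in control replicate 2, although its RPKM differed 2.26-fold between them. Hs6st2 was 0.157 and 0.134 times Ccr6, where its RPKM differed 2.69-fold. Fam184b, whose RPKM hardly differed, was 0.201 and 0.476 times Ccr6, and Pxdc1 2.11 and 3.25 times. The control replicates were thus closer for Ccdc184 and Hs6st2 after division by Ccr6 and further apart for Fam184b, a description of 2 libraries only.

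Hs6st2 was the main gene of its family in control cells and a minor one in Gata3-KO cells. Hs6st1, which codes for a related enzyme with the same reaction, had 4.82 and 3.76 RPKM in control replicates 1 and 2, and its values of 3.80 and 5.34 RPKM overlapped with these in Gata3-KO replicates 1 and 2. Its log2 difference of 0.07 ± 0.34 (SE) did not pass limma's test (adjusted p = 0.913), and after median-ratio scaling it was −0.42 (adjusted p = 0.446 in limma). Hs6st3 had 3 and 1 reads in control and none in Gata3-KO libraries, too few to compare. Hs6st2 made up 82.2% and 69.1% of the summed RPKM of the 3 genes in control replicates 1 and 2 and 12.6% and 7.74% in Gata3-KO replicates 1 and 2. The summed level was 27.8 and 12.3 RPKM in control libraries against 4.35 and 5.79 RPKM in Gata3-KO libraries. The difference in the sum is that of Hs6st2, which was chosen for it. Fam184a, the relative of Fam184b, had no reads in any library.

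**Figure D3:**
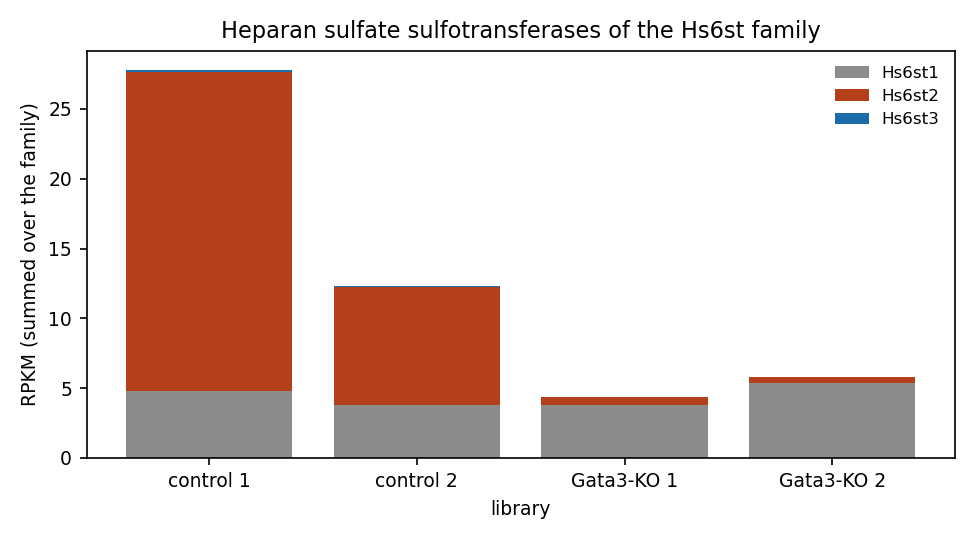
Stacked RPKM of Hs6st1, Hs6st2 and Hs6st3 in each of the 4 libraries (bars start at 0). Hs6st2 is the larger share in both control libraries (82.2% and 69.1%) and the smaller in both Gata3-KO libraries (12.6% and 7.74%).

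None of the other heparan sulfate genes tested was called lower. Of 68 such genes, Hs6st2 left out, with roles in making, modifying, carrying or binding the chain, 54 were tested, and limma called 3 higher (5.56%) and 0 lower in Gata3-KO libraries, near the shares of all tested genes (8.3% higher, 0.687% lower). The 3 were B4galt7, which codes for a galactosyltransferase of the linker that joins the chain to its protein, Ugdh, which makes the glucuronate donor, and Gusb, a lysosomal glucuronidase. B4galt7 rose from 2.98 and 1.48 RPKM to 10.3 and 8.78 RPKM (log2 1.74 ± 0.36, adjusted p = 0.0407 in limma). Ugdh rose by 1.47 (adjusted p = 0.044 in limma) and Gusb by 1.28 (adjusted p = 0.0493 in limma). None of the 3 passed after median-ratio scaling, under which 1.04% of all tested genes did. The list's median log2 difference was 0.42, against 0.43 for all tested genes.

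By role, the enzymes that sulfate or epimerise the chain had 7 of 15 genes tested and 0 called. Their median was 0.07, against 0.43 for all tested genes. Of these Hs3st1, another sulfotransferase, had 16.1 and 3.84 RPKM in control libraries against 18.5 and 33.2 RPKM in Gata3-KO libraries (log2 1.51 ± 0.65, adjusted p = 0.185 in limma). Ndst1, which starts sulfation of the chain, had 3.72 and 5.41 against 2.66 and 4.51 RPKM, and Hs2st1 was at or below 1.58 RPKM in all libraries. Of the 5 polymerase genes of the Ext family all were tested and 0 called. Of 14 core proteins 11 were tested and 0 called. The most abundant were Sdc4, a syndecan, with 763 and 406 RPKM in control libraries against 241 and 364 RPKM in Gata3-KO libraries (log2 −0.91 ± 0.42, adjusted p = 0.199 in limma), and Srgn, serglycin, with 719 and 504 against 676 and 628 RPKM. Sdc1, also a plasma cell marker, had 91.4 and 59.1 against 162 and 175 RPKM (adjusted p = 0.0657 in limma), and the other 11 were below 10 RPKM in every library. Of 10 tested genes that remove sulfate or cleave the chain 1 was called (Gusb), and of 9 tested receptors that bind heparan sulfate 0 were called. Over all tested genes 8.3% were called higher and 0.687% lower. At those shares lists of 5 to 11 genes would hold few calls, so these counts say little about any role.

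None of the other PX and phosphoinositide genes tested was called lower. Of 45 tested genes for PX proteins, limma called 5 higher (11.1%, against 8.3% of all tested genes) and 0 lower (against 0.687%). Of 13 lipid kinases and 13 lipid phosphatases tested 0 were called. Over the 71 tested genes of the list 7.04% were called higher and 0% lower. These shares are near those of all tested genes, so the counts say little about the list. Snx8, a sorting nexin of endosomes, rose from 2.57 and 3.35 RPKM to 17.4 and 20.2 RPKM (log2 2.33 ± 0.30, adjusted p = 0.0185 in limma). Noxo1 and Ncf1, which code for organising subunits of NADPH oxidases in epithelium and phagocytes, rose by 2.44 (adjusted p = 0.0197 in limma) and 2.26 (adjusted p = 0.0278 in limma). Sh3pxd2b, an adaptor of podosomes, rose by 1.98 (adjusted p = 0.0326 in limma) from 2 and 1 reads in the control libraries, below the floor of 3 reads, so its size is uncertain. Snx5, another sorting nexin, rose by 1.33 (adjusted p = 0.037 in limma). Epithelial and B cell markers rose in the same libraries, and their part in these calls was not tested. Among genes with lower values, Snx18 came nearest to the threshold, with 20.8 and 24.7 RPKM in control libraries against 8.44 and 10.4 RPKM in Gata3-KO libraries (log2 −1.19 ± 0.28, adjusted p = 0.0534 in limma), and it was the 1 gene of the list called lower with a filter of 5 CPM. None of the 5 genes called higher passed after median-ratio scaling, under which 1.04% of all tested genes did. The median of the whole list of 71 tested genes was 0.54, against 0.43 for all tested genes.

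None of the genes beside the 4 on their chromosomes was called. Of the 24 nearest protein-coding genes, 3 on each side of each gene, 16 were tested. In limma 0 passed, where 8.99% of all tested genes did, and 2 (Lap3 and Psmg4, both higher) passed with a filter of 5 CPM. At that share 16 genes would hold few calls, so the count says little about the neighbours. Their distances ran from 0.421 kb (Med28) to 2342 kb (Slit2, beside Fam184b). Asb8, 2.21 kb from Ccdc184, had 6.20 and 9.60 RPKM in control libraries against 13.4 and 11.2 RPKM in Gata3-KO libraries. Pfkm, 35.36 kb from Ccdc184, had 5.73 and 2.72 RPKM in control libraries against 1.09 and 2.32 RPKM in Gata3-KO libraries, which was the lowest log2 difference of the 16 (−0.92 ± 0.44, adjusted p = 0.213 in limma). The 3 olfactory receptor genes on the other side had no reads. Med28, a Mediator subunit only 0.421 kb from Fam184b, had 11.2 and 10.1 RPKM in control libraries against 16.7 and 17.7 RPKM in Gata3-KO libraries. The log2 difference of Med28 was 0.64 ± 0.27 (adjusted p = 0.173 in limma), and that of Fam184b, which was chosen for it, was −4.44. The 5 tested neighbours of Pxdc1, 82.17 to 497.5 kb away, lay between −0.28 and 1.09 on the log2 scale. The 3 tested neighbours of Hs6st2, 180.6 to 369.3 kb away, were Rap2c, Mbnl3 and Gpc4, at 0.00, −0.31 and 0.88. The median of the 16 was 0.36, against 0.43 for all tested genes.

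**Figure D4:**
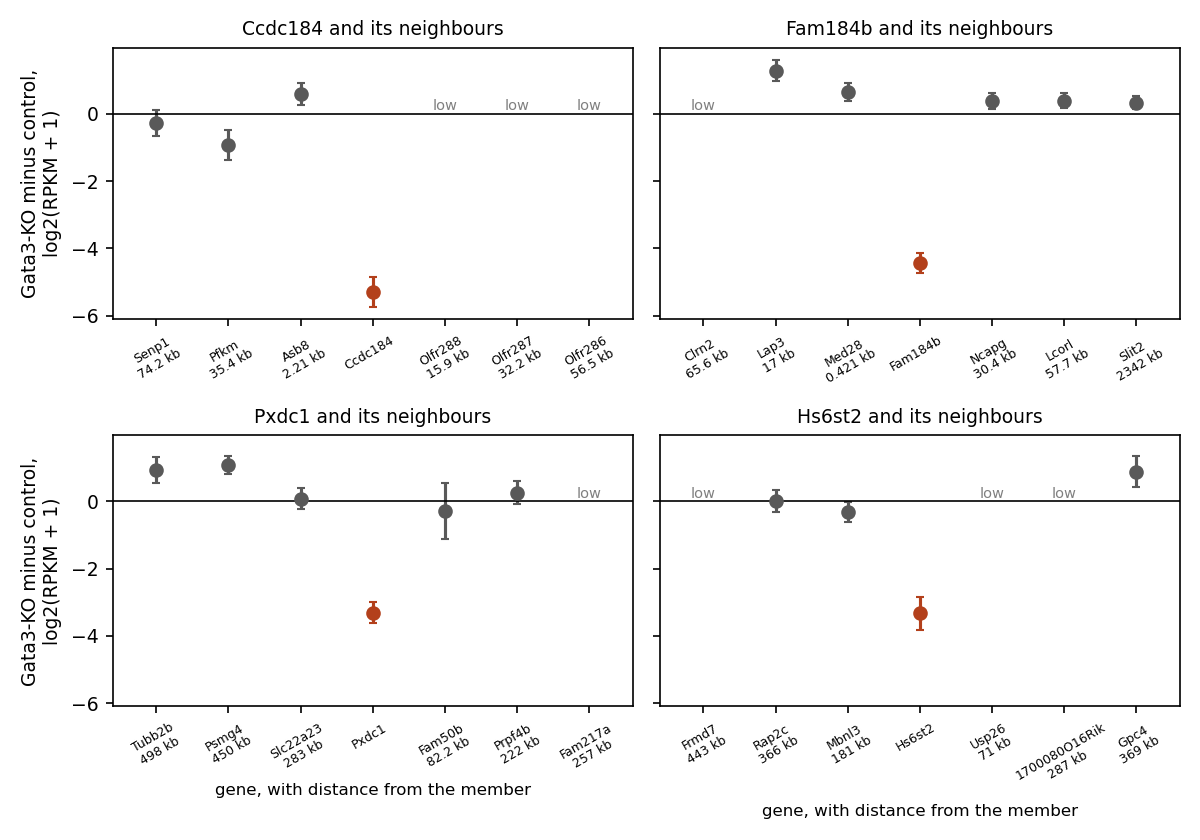
Log2(RPKM + 1) difference, Gata3-KO minus control, with its standard error in limma, for each of the 4 genes (orange) and its 3 nearest protein-coding genes on each side (grey), with distances in kb below the names; "low" marks genes with too few reads to test. The tested neighbours lie between −0.92 and 1.28, and the 4 genes between −5.28 and −3.31.

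Likeness of pattern was measured as the root mean square difference between mean-centred log2(RPKM + 1) values over the 4 libraries, which counts size as well as shape and comes from the same contrast that chose the genes. Ccdc184 was most like Arg1, which codes for arginase 1 (0.27), Ret, a receptor for glial-derived neurotrophic ligands (0.29) and Fam184b (0.63). Fam184b was most like Klrk1, which codes for the receptor NKG2D (0.23), Arg1 (0.39) and Ret (0.40). Pxdc1 was most like Colgalt2, a collagen galactosyltransferase (0.16), the complement gene C2 (0.17) and Eng, endoglin (0.23), and Hs6st2 most like C2 (0.23), Dkk3 (0.29) and Pxdc1 (0.31). The 4 genes fell into pairs by this measure only in part: Pxdc1 and Hs6st2 differed by 0.31 and Ccdc184 and Fam184b by 0.63, but Fam184b and Pxdc1 by 0.62. With 4 libraries such values describe the table and carry no test.

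**Figure D5:**
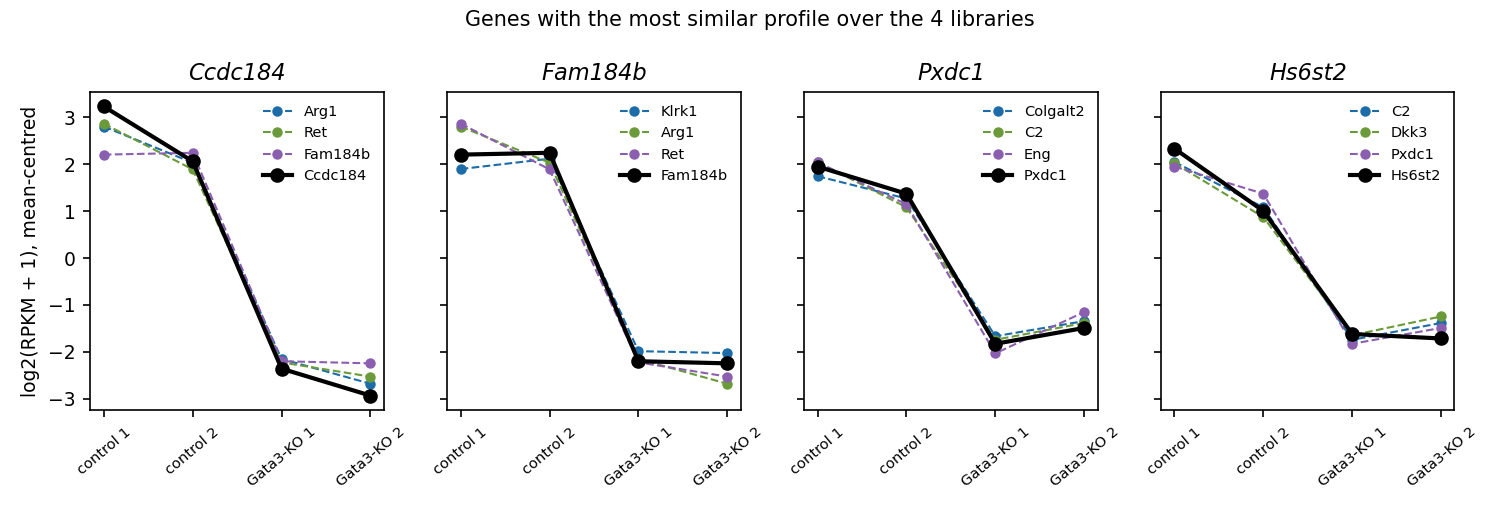
Mean-centred log2(RPKM + 1) of each of the 4 genes (black) and its 3 most similar tested genes (colours) in the 4 libraries; lines only guide the eye. The nearest gene differs by 0.27 for Ccdc184 (Arg1), 0.23 for Fam184b (Klrk1), 0.16 for Pxdc1 (Colgalt2) and 0.23 for Hs6st2 (C2).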

How the data were processed

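RNA of sorted LTi cells was extracted with a miRNeasy Micro kit and made into Smart-seq2 libraries, per the labels' protocols. Subread, featureCounts and the build mm10 are named, per the submitters' processing notes, with no version, annotation or strand setting stated. As deposited by the authors, values are log2(RPKM + 1) with 0.0001 added, as worked out from the values. Whole reads were recovered, since values are whole multiples of what 1 read is worth: in 99.99% of genes with reads all 4 numbers came out whole within 0.001 reads, with gene lengths chosen to make them so, and they summed to 100.1% to 100.4% of the library totals. A longer length gives proportionally more reads, so read numbers, but not RPKM, are uncertain by a whole factor, mainly for Pxdc1 (1872 bases used, 2684 in GENCODE). Totals were 14294708 and 12670034 reads in control and 24315878 and 23973995 reads in Gata3-KO replicates 1 and 2. A floor of 3 reads is 0.123 to 0.237 CPM, and intervals cover counting error only.

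Genes with at least 0.5226 CPM in 2 libraries and 15 reads in total were tested with limma 3.58.1 (R 4.3.3, trend and robust variance, two-sided, pseudocount 1) with Benjamini-Hochberg adjustment over all 14272 genes and a threshold of 0.05. The fit was tested on data simulated for the genotype comparison (14272 genes, 200 of them changed). Unlike the real libraries, these had the same dispersion for every gene and no shift of the median gene. It recovered 23.3% of 2-fold, 92% of 4-fold, 96% of 8-fold and 98.7% of 16-fold changes, with 6.06% false among the calls. These rates may not hold for the real libraries. Symbols, positions and promoter sequences came from RefSeq (GRCm38.p6), exons and UTRs from GENCODE. The 4 genes and all lists were chosen with earlier results of these data known. Named are the 4 genes, Gata3, the called genes of the lists, paralogs, and the 3 genes most like each of the 4 (predicted genes, pseudogenes and antigen receptor genes left out). Other names (Epas1, Il22, Hs3st1, Ndst1, Hs2st1, Sdc4, Srgn, Snx18, Lap3, Psmg4, Sdc1, the other neighbours and the markers) were chosen after their values were seen. Some marker genes are not reported here. Division by Ccr6 and Il7r was chosen with the values known. Alternatives were median-ratio, TMM and upper-quartile scaling, no filter or one of 5 CPM, a pseudocount of 0.1, limma-voom with the recovered reads, a replicate block and leaving out each library. Other steps ran in Python 3.11.15 with pandas 2.3.3, numpy 2.4.6, matplotlib 3.10.9 and scipy 1.17.1.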

Additional observations from a re-analysis of the deposited data

How the results depend on the processing

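The 4 genes were lower in Gata3-KO libraries under every alternative run. Fam184b, whose replicates hardly vary, moved from −4.44 to −4.81 with median-ratio, −4.80 with TMM and −4.79 with upper-quartile scaling, −5.85 with a pseudocount of 0.1 and −6.14 in limma-voom. With the 3 scalings in the same order, Pxdc1 moved to −3.90, −3.88 and −3.86, Ccdc184 to −5.81, −5.79 and −5.77, and Hs6st2 to −3.70, −3.69 and −3.68. With the pseudocount of 0.1 Hs6st2 was at −4.56, Ccdc184 at −5.59 and Pxdc1 at −3.36. In limma-voom they were at −4.82, −5.63 and −3.37. Without any 1 library the log2 differences ranged from −5.87 to −4.70 for Ccdc184, −4.46 to −4.42 for Fam184b, −3.60 to −3.03 for Pxdc1 and −3.99 to −2.67 for Hs6st2; without control replicate 1 they were −4.70 for Ccdc184 and −2.67 for Hs6st2. Hs6st1 turned to −0.42, −0.40 and −0.39 with median-ratio, TMM and upper-quartile scaling, and ranged from −0.13 to 0.27 without 1 library (−0.08 without control replicate 2, −0.13 without Gata3-KO replicate 2), and it passed under none.

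Limma's 1283 calls over the whole table (1185 higher, 98 lower) turned into 148 (86, 62) under median-ratio, 179 (112, 67) with TMM and 186 (120, 66) with upper-quartile scaling, 850 with a pseudocount of 0.1, 280 (232, 48) in limma-voom and 1721 with a filter of 5 CPM. No filter gave 0 limma calls and 4335 genes with unadjusted p below 0.05, and leaving out any 1 library gave 0 to 0 calls and 2400 to 3813 such genes. A library left out leaves its genotype with 1 sample, assumed to vary like the other genotype. The 3 heparan sulfate calls became 0 with each scaling, with the pseudocount of 0.1, without a filter and in limma-voom, and 6 with the filter of 5 CPM. The 5 PX and phosphoinositide calls became 0 with each scaling and without a filter, 3 in limma-voom, and 15 (14 higher, 1 lower) with the filter of 5 CPM. The 0 neighbour calls became 2 with the filter of 5 CPM. The replicate numbers are not said to pair libraries (correlation of deviations −0.02), and a fit with the replicate number as a block called 1043 genes, 2 heparan sulfate, 5 PX and 0 neighbour genes. In that block the 4 genes kept −5.28, −4.44, −3.31 and −3.33 (Ccdc184, Fam184b, Pxdc1, Hs6st2) and Hs6st1 0.07. The cause of these changes was not tested. Depth limits Fam184b and Hs6st2 in Gata3-KO cells, at 39 to 57 reads.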
